A study of Mus musculus with 10 samples.

Results

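The enzymes that build and sulphate glycosaminoglycan chains were followed in visceral fat of mice with and without serglycin (Srgn), a proteoglycan whose core protein carries such chains. Members were taken by gene symbol from a list of 44, and 41 of them had a row among the 23930 amplicons of the deposited tables. Of these 41, 39 passed the filter on low counts and were tested. Chst12, Hs3st3a1 and Hs3st3b1 were not analysed here. The 10 libraries came from epididymal white adipose tissue of male C57BL/6 mice, 18 weeks old, all kept for 8 weeks on a high sucrose, high fat diet. The groups were Srgn+/+ (wild-type, n = 5) and Srgn-/- (Srgn-knockout, n = 5), taken from separate mice as the design text gives them, so p-values measure the spread between mice. The labels name no cell type or promoter for the deletion. The tissue is a mixture of cells, and fewer cells of a type and less RNA per cell cannot be told apart.

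Glycosaminoglycans are long sugar chains attached to the core proteins of proteoglycans. A short linker is built on a serine of the core, after which the chain becomes chondroitin or heparan, and sulphate is then added in patterns that set which proteins it binds. Serglycin carries heparin, a highly sulphated heparan relative, in mast cells of connective tissue, and chondroitin sulphate in macrophages and lymphocytes, where the chains hold proteases and other cargo in secretory granules. In fat, fibroblasts, vessel cells and adipocytes also make proteoglycans of the matrix and the cell surface.

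None of the 39 tested enzymes was higher or lower in Srgn-knockout fat by the edgeR quasi-likelihood test at an adjusted p of 0.05, where 0% of 12719 genes were called higher and 0.00786% lower. The 1 gene called was Srgn itself. At an unadjusted p under 0.05 there were 2 members, Csgalnact1 with a higher and Chpf with a lower value. That is 5.13% of the 39, against 12.8% of all tested genes (6.77% higher, 6.06% lower). The groups were without overlap for 0 members, against 2.78% of all genes (1.39% higher, 1.38% lower). The median log2 fold change was -0.004 over the members and -0.001 over all tested genes, and 19 members had higher and 20 lower values in Srgn-knockout. For 23 members (59%) the 95% interval of the fold change lay within 1.5-fold in either direction, against 54.7% of all genes. Among genes with a mean of at least 5 CPM (reads per 1e+06 reads of the library, normalized for library composition) these shares were 67.6% of 34 members and 67.5% of 10210 genes. Such a share depends on the size of the fold change as well as on its SE. The median SE of the log2 fold change was 0.145 over the members and 0.165 over all tested genes.

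The Srgn amplicon checks the labels. Wild-type libraries 1 to 5 had 776, 1047, 1301, 851 and 1005 reads of it, and Srgn-knockout libraries 1 to 5 had 3, 1, 0, 0 and 12 (log2 fold change -8.18, SE 0.508, edgeR adjusted p = 9.44e-05). Libraries held 7824764 to 10757779 reads. Defining adipocyte genes, such as Adipoq and Plin1, were read in every library, with a summed level of 28100 to 34700 CPM over 8 markers. Genes of the epididymis, the neighbouring organ, summed to 526 CPM in wild-type 4, 4390 in Srgn-knockout 3 and 1030 in Srgn-knockout 5, and to at most 19.3 CPM in the other libraries. Macrophage markers had lower values in Srgn-knockout for 11 of 11 tested genes (3 at an unadjusted p under 0.05). The 12 listed markers summed to 1740 to 5680 CPM in the wild-type and 1840 to 3500 CPM in the Srgn-knockout libraries. All marker sums here are CPM not normalized for library composition. The library mean of the 11 tested markers did not pass (difference -0.42 on the log2 scale, two-sided exact permutation p = 0.270). Mast cell markers summed to 66.8 to 117 CPM in the wild-type and 52.3 to 96.0 CPM in the Srgn-knockout libraries. None of the 9 listed markers was at 0 reads in a library. Of the 7 tested, 5 had lower values (1 at an unadjusted p under 0.05) and 2 higher. T cell markers were lower for 8 of 8 tested genes (7 at an unadjusted p under 0.05) and B cell markers for 7 of 7 (3). Endothelial markers were higher for 6 of 7 (3) and progenitor and fibroblast markers for 6 of 9 (2). Mesothelial markers were lower for 5 of 6 (0) and adipocyte markers for 6 of 8 (0). Over all tested genes 12.8% were at an unadjusted p under 0.05. The part of these cells in the enzyme values was not tested, apart from the relation to the macrophage level. Relations to other marker levels were computed as a description only. With the endothelial level r was -0.88 for Chpf and 0.56 for Csgalnact1. Other members had values as large, with -0.91 for Hs6st1 and -0.82 for B4galt7 and Dse. With the macrophage level r was 0.665 for Chpf (permutation adjusted p = 0.109) and -0.356 for Csgalnact1 (permutation adjusted p = 0.462).

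**Figure D1:**
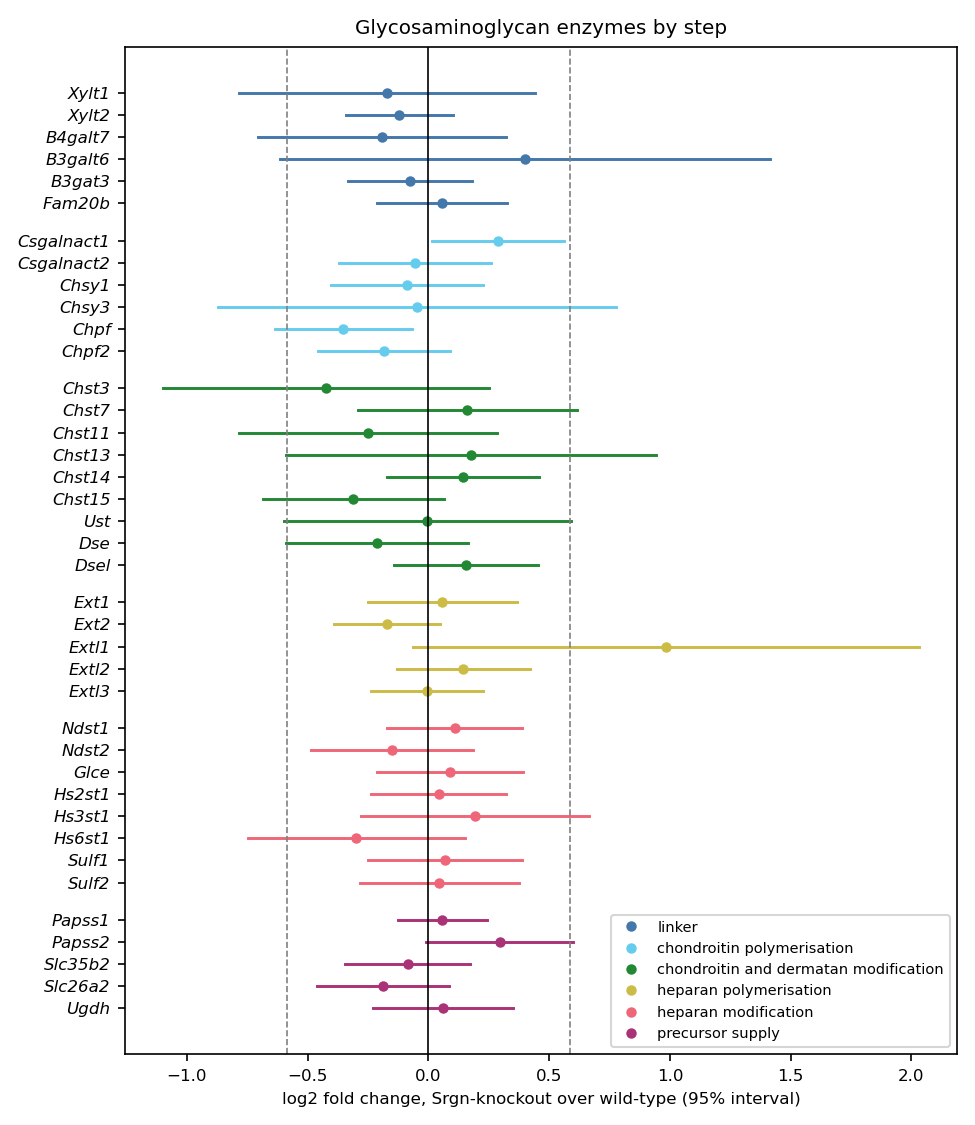
Log2 fold change of the 39 tested enzymes, Srgn-knockout over wild-type (points), with 95% intervals (lines), coloured by step; dashed lines mark 1.5-fold. Only the intervals of Csgalnact1 (above 0) and Chpf (below 0) leave out 0, and the widest belong to enzymes near 1 CPM, such as Extl1 and B3galt6.

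The linker is shared by chondroitin and heparan. Of its 6 enzymes, 2 had higher and 4 lower values, with a median of -0.10 on the log2 scale, and none passed. Xylt2, which with Xylt1 places xylose on the core protein, had 30.2, 36.7, 32.9, 35.1 and 34.9 CPM in the wild-type and 28.3, 37.3, 30.2, 31.6 and 28.6 CPM in the Srgn-knockout libraries. The groups overlapped, and Srgn-knockout 2 was the highest of all 10 libraries. The log2 fold change was -0.12 (SE 0.102, edgeR adjusted p = 0.637), with an interval of 0.789 to 1.07-fold. B3galt6, which adds the outer galactose, had 12, 13, 6, 6 and 6 reads in the wild-type and 10, 20, 12, 2 and 10 reads in the Srgn-knockout libraries, or 1.15, 1.24, 0.609, 0.686 and 0.796 against 0.980, 2.20, 1.43, 0.255 and 1.09 CPM. Srgn-knockout held both the highest and the lowest library, and at so few reads the interval of the fold change ran from 0.653 to 2.67 (log2 0.40, edgeR adjusted p = 0.748). Fam20b, the kinase that phosphorylates the xylose, had 30.4 ± 4.61 and 31.7 ± 3.33 CPM (SD, n = 5 each), and B3gat3, which adds the glucuronic acid that completes the linker, 30.7 ± 2.77 and 29.1 ± 4.51 CPM. B4galt7, which adds the inner galactose, had 23.0 ± 5.82 and 20.1 ± 6.46 CPM, and Xylt1 12.4 ± 5.05 and 11.01 ± 2.30 CPM. Both varied more between animals of a genotype than the genotypes differed.

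The 2 members at an unadjusted p under 0.05 both act in the lengthening of chondroitin, and their values went in opposite directions. Csgalnact1, which adds the N-acetylgalactosamine that commits a linker to chondroitin, had 12.0, 12.2, 13.6, 10.9 and 10.9 CPM in the wild-type and 14.6, 16.3, 14.9, 15.2 and 11.9 CPM in the Srgn-knockout libraries. Of the Srgn-knockout libraries, 4 of 5 lay above every wild-type library, and Srgn-knockout 5 lay among the wild-type values. The log2 fold change was 0.29 (SE 0.126, interval 1.01 to 1.48-fold, edgeR adjusted p = 0.373); the unadjusted p was 0.0405. Chpf, which forms the polymerising complex with a chondroitin synthase, had 99.6, 128, 109, 159 and 122 CPM in the wild-type and 111, 82.1, 87.3, 101 and 103 CPM in the Srgn-knockout libraries. All 5 Srgn-knockout libraries lay below the wild-type median, while wild-type 1 and 3 lay within the Srgn-knockout range. The log2 fold change was -0.35 (SE 0.131, interval 0.643 to 0.955-fold, edgeR adjusted p = 0.311); the unadjusted p was 0.0199. Neither value is past the threshold over all genes. With the 3 epididymis libraries left out, added once the values were known, the log2 value of Chpf was -0.23 (unadjusted edgeR p of 0.157) and that of Csgalnact1 0.33 (0.0586). The unadjusted p of Chpf was also over 0.05 without wild-type 4 (0.0601, log2 -0.24) or Srgn-knockout 2 (0.0515). That of Csgalnact1 was over 0.05 without any 1 of 8 libraries, all but wild-type 3 and Srgn-knockout 5, up to 0.0975 without Srgn-knockout 2, and was 0.114 in limma-voom and 0.0723 with no filter on low counts.

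The closest relatives of both were not at an unadjusted p under 0.05. Csgalnact2, the other initiating enzyme, had 67.3 ± 13.1 CPM in the wild-type group and 64.7 ± 10.8 CPM in the Srgn-knockout group, with wild-type 5 at 90.6 CPM and the other wild-type libraries at 60.9 to 62.0 CPM. Chpf2, the other polymerising factor, had 144 ± 28.9 and 127 ± 11.1 CPM (log2 -0.18, interval 0.729 to 1.06-fold, edgeR adjusted p = 0.558). The synthase Chsy1 had 21.2 ± 3.61 and 19.8 ± 2.89 CPM, and Chsy3 had 1.28 ± 0.610 and 1.25 ± 0.334 CPM. Whether Csgalnact1 differs from Csgalnact2, or Chpf from Chpf2, in its response was not tested. In all, 1 of the 6 enzymes of this step had a higher and 5 a lower value, with a median of -0.07.

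**Figure D2:**
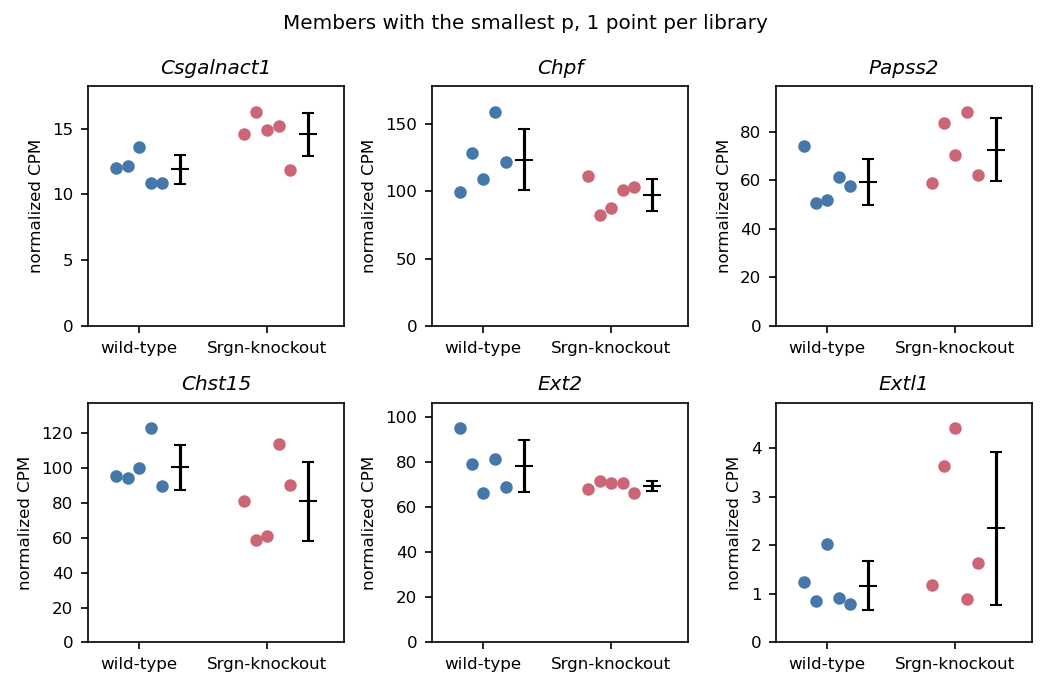
Normalized CPM of the 6 members with the smallest p, 1 point per library, with the mean and SD (n = 5) beside each group. The groups overlap in all 6; Csgalnact1 (10.9 to 13.6 against 11.9 to 16.3 CPM) and Chpf (99.6 to 159 against 82.1 to 111 CPM) have the smallest p, and in Extl1 Srgn-knockout 2 and 3 lie above all other libraries.

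Chondroitin and dermatan sulphate are made from the finished chain by sulphotransferases and by epimerases that turn glucuronic into iduronic acid. Of 9 tested enzymes 4 had higher and 5 lower values, with a median of -0.004, and none passed. Chst15, which adds a further sulphate to give the doubly sulphated chondroitin sulphate E of mast cells and activated macrophages, had 95.7, 94.6, 99.9, 123 and 89.6 CPM in the wild-type and 81.0, 58.9, 61.1, 114 and 90.4 CPM in the Srgn-knockout libraries. Its low values stood in Srgn-knockout 2 and 3, and Srgn-knockout 4 lay above 4 of the 5 wild-type libraries (log2 -0.31, interval 0.621 to 1.05-fold, edgeR adjusted p = 0.469). The log2 value ran from -0.22 without Srgn-knockout 2 to -0.47 without Srgn-knockout 4 (edgeR adjusted p = 0.707 and adjusted p = 0.251, unadjusted 0.214 and 0.00850), and was -0.17 with the 3 epididymis libraries left out. Chst11, the main enzyme that sulphates chondroitin in many tissues, had the same low libraries, with 11.9 and 13.5 CPM in Srgn-knockout 2 and 3 against 17.4 to 29.9 CPM in the other 3 and 20.5 to 31.8 CPM in wild-type (log2 -0.25, edgeR adjusted p = 0.691). Srgn-knockout 2 and 3 also had the lowest macrophage marker levels of their group. Wild-type 1 had the lowest level of any library, with Chst15 (95.7 CPM) and Chst11 (21.8 CPM) within the range of the other wild-type libraries. Over all libraries neither passed against the macrophage level. Pearson's r was 0.51 for Chst15 (permutation adjusted p = 0.245) and 0.71 for Chst11 (permutation adjusted p = 0.0852).

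Chst3, which sulphates another position of N-acetylgalactosamine than Chst11, lay near 1 CPM, with 1.54, 1.43, 1.22, 1.72 and 1.19 CPM in the wild-type and 0.784, 1.10, 1.55, 0.765 and 1.09 CPM in the Srgn-knockout libraries. At this low level the interval of the fold change ran from 0.467 to 1.19 and included no difference (edgeR adjusted p = 0.585). Chst7, of the same specificity, had 4.97 ± 0.906 and 5.58 ± 1.13 CPM. Chst14, the sulphotransferase of dermatan, had 12.6 ± 1.54 and 13.9 ± 2.30 CPM, and Chst13, a relative of Chst11, 1.70 ± 0.299 and 1.93 ± 0.889 CPM. Ust, which sulphates the uronic acid, had the same mean in both groups (5.65 CPM) and a range of 3.72 to 7.84 CPM over animals. The epimerases Dse (64.1 ± 10.8 and 55.3 ± 13.9 CPM) and Dsel (9.97 ± 1.14 and 11.1 ± 1.19 CPM) had values in opposite directions, and neither passed. For 2 of the 9 enzymes the interval lay within 1.5-fold, the fewest of any step.

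Heparan is polymerised by Ext1 and Ext2, which work as a complex, after a start by Extl3. Ext1 had 62.7 ± 3.31 CPM in wild-type libraries against 65.3 ± 15.8 CPM in Srgn-knockout, where Srgn-knockout 4 reached 89.9 CPM and Srgn-knockout 2 and 3 had 53.1 and 49.9 CPM. Ext2 had 94.9, 79.1, 66.4, 81.4 and 68.9 CPM in the wild-type and 67.9, 71.5, 70.6, 70.8 and 66 CPM in the Srgn-knockout libraries. The Srgn-knockout libraries lay close together, 4 of them in the lower part of the wild-type range and Srgn-knockout 5 just below it (log2 -0.17, interval 0.763 to 1.03-fold, edgeR adjusted p = 0.499). Extl3 had 22.6 ± 2.02 and 22.5 ± 2.23 CPM and an interval of 0.849 to 1.17-fold. Extl2, which can cap a linker before a chain starts, had 24.3 ± 3.24 and 26.9 ± 3.65 CPM.

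Extl1, a glycosyltransferase of the same family, had the largest fitted difference of the 39 members and is among the lowest in reads. Wild-type libraries held 13, 9, 20, 8 and 6 reads and Srgn-knockout libraries 12, 33, 37, 7 and 15, or 1.25, 0.860, 2.03, 0.915 and 0.796 CPM against 1.18, 3.63, 4.41, 0.893 and 1.64 CPM. Srgn-knockout 2 and 3 were high and the other 3 lay within the wild-type range (log2 0.98, SE 0.482, interval 0.958 to 4.09-fold, edgeR adjusted p = 0.410). The log2 value was 0.64 without Srgn-knockout 3, 0.61 with the 3 epididymis libraries left out and 0.56 in limma-trend. The 5 enzymes of heparan polymerisation had a median of 0.06, with 3 higher and 2 lower values.

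Heparan is then modified in order, by N-deacetylation and N-sulphation, epimerisation and further sulphation, and can be trimmed outside the cell. Of 8 tested enzymes 6 had higher and 2 lower values, with a median of 0.06 (0.001 to 0.119 over the alternatives), and for 6 of them the interval lay within 1.5-fold. Ndst2, the N-sulphotransferase that mast cells need to make heparin, had 16, 16.9, 18.2, 12.8 and 16.1 CPM in the wild-type and 18.0, 15.1, 11.2, 12.0 and 15.6 CPM in the Srgn-knockout libraries. The groups overlapped over most of their range (log2 -0.15, interval 0.715 to 1.14-fold, edgeR adjusted p = 0.707). Ndst1, the N-sulphotransferase of most other cells, had 19.9 ± 1.92 and 21.4 ± 3.35 CPM. Ndst3 had 16 reads and Hs6st2 12 reads over all 10 libraries, and both fell below the filter.

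Hs6st1, which sulphates glucosamine in heparan, had 59.2, 94.2, 94.0, 99.6 and 123 CPM in the wild-type and 94.5, 51.9, 72.6, 97.0 and 66.3 CPM in the Srgn-knockout libraries. Wild-type 1 and Srgn-knockout 2, 3 and 5 were low and the other 6 libraries were high, so that the low libraries came from both genotypes (log2 -0.30, interval 0.596 to 1.11-fold, edgeR adjusted p = 0.565). Hs3st1, which makes the rare sequence that binds antithrombin, had 24.4, 16.1, 9.54, 15.1 and 11.7 CPM in the wild-type and 14.6, 17.7, 20.1, 17.4 and 18.1 CPM in the Srgn-knockout libraries. Its extremes, wild-type 1 and wild-type 3, were both wild-type (log2 0.19, edgeR adjusted p = 0.741). The value rested on single libraries. Its log2 fold change was 0.42 without wild-type 1 (edgeR adjusted p = 0.233, unadjusted p of 0.0264), but 0.06 without wild-type 3, 0.10 without wild-type 5 and 0.10 with the 3 epididymis libraries left out. The epimerase Glce (13.9 ± 2.32 and 14.7 ± 1.44 CPM), the uronic acid sulphotransferase Hs2st1 (23.0 ± 3.55 and 23.7 ± 2.75 CPM) and the extracellular sulphatases Sulf1 (33.8 ± 4.49 and 35.4 ± 7.53 CPM) and Sulf2 (138 ± 31.1 and 143 ± 21.2 CPM) differed by less than the spread between animals.

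All sulphation draws on 1 donor, PAPS, which Papss1 and Papss2 make from sulphate. Papss2 had 74.1, 50.8, 51.8, 61.3 and 57.7 CPM in the wild-type and 58.7, 83.7, 70.2, 88.2 and 62.2 CPM in the Srgn-knockout libraries. It was the 1 member with all 5 Srgn-knockout libraries above the wild-type median, but wild-type 1 lay above 3 of them (log2 0.29, SE 0.140, interval 0.994 to 1.52-fold, edgeR adjusted p = 0.398). With 1 library left out, the log2 value ran from 0.21 without Srgn-knockout 4 to 0.39 without wild-type 1 (edgeR adjusted p = 0.543 and adjusted p = 0.190, unadjusted 0.163 and 0.0112). Papss1 was the steadiest member of all, with 55.6 to 60.2 CPM in the wild-type and 53.6 to 67.4 CPM in the Srgn-knockout libraries (log2 0.06, interval 0.915 to 1.18-fold).

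Slc26a2, which brings sulphate into the cell, had 23.6, 21.9, 17.8, 22.5 and 18.7 CPM in the wild-type and 21.3, 17.7, 19.8, 15.2 and 17.8 CPM in the Srgn-knockout libraries. No Srgn-knockout library lay above the wild-type median (log2 -0.19, interval 0.727 to 1.06-fold, edgeR adjusted p = 0.553). Slc35b2, the carrier of PAPS into the Golgi, had 55.6 ± 8.08 and 52.3 ± 5.50 CPM, with Srgn-knockout 2 at 42.6 CPM. Ugdh, which makes the UDP-glucuronic acid used in both chains, had 78.1 ± 14.3 and 81.3 ± 10.5 CPM. None of these enzymes and carriers passed, and their median was 0.06.

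Several enzymes varied more between mice of 1 genotype than the genotype means differed, and the values were set against the macrophage marker level of each library. The macrophage level of a library was taken as the mean of centred log2 CPM over 11 marker genes, and ran from -0.80 in wild-type 1 to 0.81 in wild-type 5 with no gap wider than 0.47. This relation was looked for after the values had been seen, over 39 members with Benjamini-Hochberg adjustment over the 39. Over the 10 libraries 4 members rose with it and 1 fell. Among 12669 other genes 9.19% had r of at least 0.8 and 4.99% of at most -0.8, against 10.3% and 2.56% of the members, so the shares among the members are near those of other genes. CPM are shares of a library, so the levels of its cell types are not independent.

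Hs6st1 had the largest Pearson's r with the macrophage level of the 39 members, with r = 0.94 (permutation p = 0.000270, adjusted p = 0.00770) and Spearman rho = 0.79 (adjusted p = 0.0569). It ran from 51.9 to 123 CPM over the animals. B4galt7 had r = 0.91 (permutation p = 0.000720, adjusted p = 0.00770) and rho = 0.87 (adjusted p = 0.0365), with its 3 lowest values, 13.4 to 14.9 CPM, in the 3 libraries with the least macrophage RNA. Dse had r = 0.90 (permutation p = 0.00140, adjusted p = 0.0109) and rho = 0.78 (adjusted p = 0.0574). Xylt1 had r = 0.85 (permutation p = 0.000790, adjusted p = 0.00770) and rho = 0.79 (adjusted p = 0.0569), from 5.20 CPM in wild-type 1 to 19.0 CPM in wild-type 5. The 4 come from 3 different steps, namely the linker, dermatan epimerisation and heparan sulphation, and by rank only B4galt7 of the 4 passed after adjustment.

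Hs3st1 went the other way, with r = -0.86 (permutation p = 0.000690, adjusted p = 0.00770) and rho = -0.95 (adjusted p = 0.00351). Sulf2 (r = -0.76, permutation p = 0.0119, adjusted p = 0.0639) and Chst7 (r = -0.74, permutation p = 0.0191, adjusted p = 0.0826) missed the threshold by Pearson's r and passed by rank (rho = -0.86 and -0.83, adjusted p = 0.0365 and 0.0473). The relations were also computed with the group means subtracted and the libraries of both genotypes pooled. There r was 0.93 for Hs6st1, 0.91 for B4galt7, 0.88 for Dse, 0.89 for Xylt1 and -0.84 for Hs3st1. No r was computed within a single genotype.

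Without the 2 libraries farthest from the median macrophage level, wild-type 1 and Srgn-knockout 2, r was 0.91 for Hs6st1, 0.81 for B4galt7, 0.86 for Dse, 0.90 for Xylt1 and -0.84 for Hs3st1, while with 8 libraries 0 members passed after adjustment. With the 3 epididymis libraries left out r was 0.96, 0.89, 0.90, 0.85 and -0.84 in the same order, and with 7 libraries 0 passed. The same enzymes also went with markers of other cells. Hs6st1 had r = -0.91 with the endothelial level and -0.59 with the adipocyte level, and Hs3st1 0.70 and 0.77, given as a description. Which cells make each enzyme cannot be told apart in these samples.

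**Figure D3:**
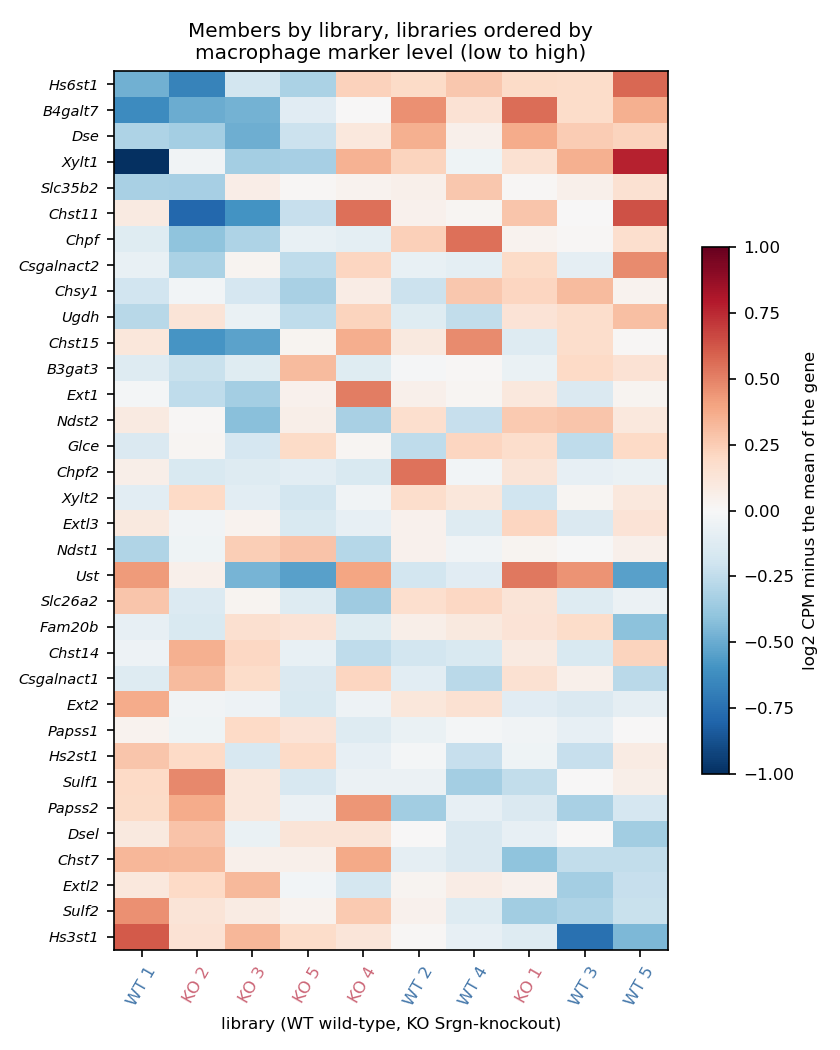
Log2 CPM of 34 members with a mean of at least 5 CPM, minus each gene's mean (colour, limits -1 to 1), in the 10 libraries ordered from the lowest to the highest macrophage level; members are ordered by r with that level. Wild-type and Srgn-knockout libraries mix along the axis, and Hs6st1, B4galt7, Dse and Xylt1 at the top change from blue to red where Hs3st1 at the bottom changes from red to blue.

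**Figure D4:**
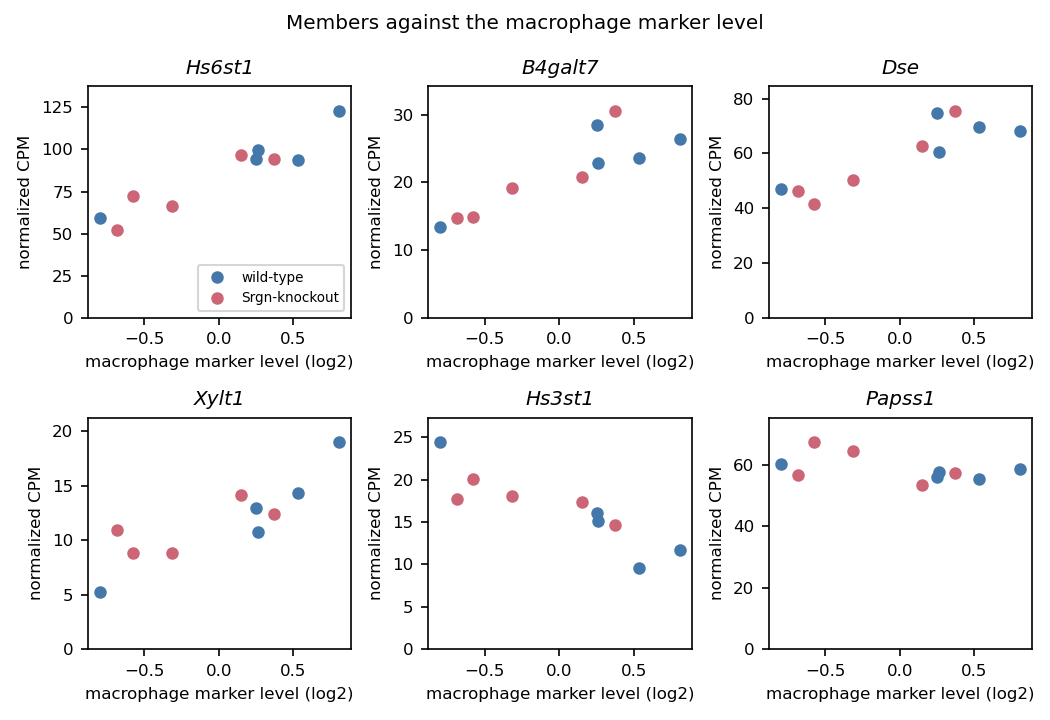
Normalized CPM of 6 members against the macrophage marker level (mean centred log2 CPM), 1 point per library, coloured by genotype. Libraries of both genotypes lie along 1 trend for Hs6st1 (r = 0.94), B4galt7, Dse, Xylt1 and Hs3st1 (r = -0.86). Papss1, shown for its narrow range of 53.6 to 67.4 CPM, had r = -0.505 (permutation adjusted p = 0.245).

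The start regions of 3 of these genes are shown because they went with the macrophage level in opposite directions, Hs6st1 and Dse up and Hs3st1 down. B4galt7 and Xylt1, which also rose, are not shown. By rank, B4galt7 passed after adjustment and Hs6st1 and Dse did not. The regions shown are the 250 bases before the annotated start, from RefSeq on assembly GRCm38.p6, in the direction of the gene. Of the 44 listed members 36 matched that table. Another build was used by the authors, and no values of the series are placed on these coordinates. Hs6st1 lies on the plus strand at chr1:36068150-36068399, Dse on the minus strand at chr10:34207236-34207485 and Hs3st1 on the minus strand at chr5:39644632-39644881. Capitals mark the GC box GGGCGG, the core GAGGAA found in sites of the macrophage factor PU.1 and other ETS factors, and the TATA box TATAAA, each searched on both strands.
Hs6st1: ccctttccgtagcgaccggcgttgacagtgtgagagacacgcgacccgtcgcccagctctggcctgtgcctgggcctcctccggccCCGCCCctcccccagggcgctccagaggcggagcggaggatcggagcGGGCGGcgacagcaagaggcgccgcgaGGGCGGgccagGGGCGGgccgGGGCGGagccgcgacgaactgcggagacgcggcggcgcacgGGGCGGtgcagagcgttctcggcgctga
Dse: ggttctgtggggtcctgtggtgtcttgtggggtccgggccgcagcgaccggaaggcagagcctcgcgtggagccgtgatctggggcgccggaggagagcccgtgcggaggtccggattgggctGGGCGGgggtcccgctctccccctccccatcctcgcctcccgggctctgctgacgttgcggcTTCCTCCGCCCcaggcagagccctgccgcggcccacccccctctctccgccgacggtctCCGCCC
Hs3st1: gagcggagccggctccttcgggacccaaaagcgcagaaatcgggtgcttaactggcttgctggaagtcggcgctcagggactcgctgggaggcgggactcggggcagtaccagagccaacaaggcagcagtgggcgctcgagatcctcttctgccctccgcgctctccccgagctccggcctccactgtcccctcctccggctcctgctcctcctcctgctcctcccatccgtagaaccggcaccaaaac

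The Hs6st1 window held 6 GC boxes and no GAGGAA, and the Dse window held 3 GC boxes and 1 GAGGAA, which shares a base with a GC box. The Hs3st1 window held none of the 3 motifs. Over all windows of the same length 32.7% held GGGCGG, 23.3% GAGGAA and 12.4% TATAAA, against 60%, 22.2% and 4.44% of 45 windows of the members. The windows were rich in G and C, at 76.4%, 74.4% and 66%, where the median was 64% over the members and 52.4% over all windows. A match is a description of the letters and not of a site in use.

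Other genes of the pathway were counted from lists made by function. Of 15 further tested genes of synthesis and transport, 0 passed and 1 was at an unadjusted p under 0.05, Golph3, which sorts glycosyltransferases in the Golgi (31.0 ± 7.12 and 41.0 ± 5.06 CPM, log2 0.40, edgeR adjusted p = 0.323, named after its value was seen). Of 18 lysosomal and extracellular enzymes of glycosaminoglycan breakdown, 14 had lower and 4 higher values (median -0.10), and 0 were at an unadjusted p under 0.05. The core proteins that carry the chains, Srgn left out, had 4 of 22 tested genes at an unadjusted p under 0.05 (18.2%, against 12.8% of all tested genes), all with higher values, and 0 past the adjusted threshold. Gpc4, a glypican that carries heparan, had 7.30 to 11.6 CPM in the wild-type and 12.7 to 19.6 CPM in the Srgn-knockout libraries, without overlap (log2 0.74, SE 0.168, edgeR adjusted p = 0.191). Nrp1, a receptor part of which carries a chain, had 72.8 to 85.5 and 90.4 to 106 CPM, also without overlap (log2 0.26, edgeR adjusted p = 0.247). These were the 2 of 22 core proteins without overlap, both higher, against 1.39% of all tested genes higher and 1.38% lower. The other 2 were Sdc2 (log2 0.21, edgeR adjusted p = 0.362) and Bgn (log2 0.32, edgeR adjusted p = 0.379), named after their values were seen.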

How the data were processed

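RNA of 10 fat samples was amplified with the Ion AmpliSeq mouse transcriptome kit, 1 amplicon per gene, and read on an Ion S5 XL, per the labels' protocols. The submitters' processing notes name build mm9. For the alignment and the counting of reads, tools are not named in the sources used here. The authors deposited raw counts per amplicon and RPM (reads per 1e+06 reads), which equal the counts scaled by column totals (largest difference 0.000591). Amplicons differ in efficiency, so levels of different genes are not compared. How specific each amplicon is among related enzymes was not tested. AmpliSeq reads carry no molecular identifiers.

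Counts were tested in R 4.3.3 with edgeR 4.0.16 (filterByExpr, minimum count 10 and total 15; TMM factors; robust quasi-likelihood test, two-sided, no covariate), fitted over 12719 genes with Benjamini-Hochberg adjustment. Levels are TMM-normalized CPM, except for summed marker levels, which are CPM without TMM factors. Intervals are 95%, from the fitted fold change and its SE. Correlations used log2 CPM (prior count 2) and 100000 permutations. Scripts were tested on simulated data. Alternatives were DESeq2 1.42.0, limma 3.58.1 (voom, and trend on log2 of the deposited RPM plus 1), other scaling and filters, and leaving out libraries.

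Members, steps and lists were chosen with earlier results of these data known. Named in full are, per step, members at an unadjusted p under 0.05 or without overlap, otherwise the 2 with the smallest p. In other pathway lists, up to 3 genes at p under 0.01 are named. Chst11, Ext1, Papss1 and the members set against the macrophage level were added after their values were seen.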

Additional observations from a re-analysis of the deposited data

Results flagged for a closer look

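In each genotype the highest and the lowest library of every tested member were set against the other 4, and a library was named where its gap to the nearest exceeded 0.71 of the group's range. Of 78 groups examined 8 (10.3%) had such a library, against 7.18% of 25438 over all tested genes; chance gives about 1 in 20 for normal values. In wild-type, Csgalnact2 was at 90.6 CPM in library 5 (others 60.9 to 62.0), Chst11 at 31.8 CPM in library 5 (20.5 to 21.8), Chpf2 at 195 CPM in library 2 (126 to 139), Chst7 at 6.54 CPM in library 1 (4.37 to 4.87) and Ndst1 at 16.6 CPM in library 1 (20 to 21.2). In Srgn-knockout, B3gat3 was at 36.9 CPM in library 5 (25.5 to 28.4), Chpf2 at 146 CPM in library 1 (120 to 124) and Slc35b2 at 42.6 CPM in library 2 (54.0 to 56.1). Wild-type 5 had the highest macrophage level and wild-type 1 the lowest. Over all libraries, Pearson's r with that level was 0.62 for Csgalnact2 and 0.71 for Chst11 (permutation adjusted p = 0.151 and 0.0852). It was -0.74 for Chst7 and 0.05 for Ndst1 (permutation adjusted p = 0.0826 and 0.937). None of these passed, and by rank only Chst7 did (Spearman adjusted p = 0.0473). The part of the macrophage level in the single outlying values was not tested.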

How the results depend on the processing

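Under 19 alternatives 0 members passed the adjusted threshold (smallest adjusted p 0.110, Chpf in limma-voom), and Srgn passed in each (log2 -9.74 to -6.35). DESeq2 called 118 genes higher and 108 lower of 12694 tested, and 0 members. B3galt6, Chsy3 and Chst3 were given no adjusted p in DESeq2, so they could not be called there. Of 736 member values 44, from 15 members, had the other sign, and none of those was called. Members with a higher value at an unadjusted p under 0.05 numbered 2 with upper-quartile factors, total counts alone or limma-trend (Csgalnact1 and Papss2), and with limma-voom or no low-count filter the 1 such member was Papss2. Members with a lower value numbered 3 with limma-voom (Chpf, Dse and Hs6st1). The share of all tested genes at an unadjusted p under 0.05, in either direction, also moved. It was 20.9% with limma-voom, 13.1% with upper-quartile factors or limma-trend, 13.2% with total counts and 9.17% with no low-count filter. Leaving out 1 library gave 0 to 2 higher and 0 to 2 lower, and leaving out the 3 epididymis libraries 0 and 0. Over all tested genes the shares in either direction were 8.7% to 17.6% without 1 library and 4.17% without the epididymis libraries. The median over all members was 0.026 with upper-quartile factors, 0.047 with total counts, 0.038 with limma-trend, -0.028 without the epididymis libraries and -0.027 to 0.026 without 1 library. Total counts alone moved the median of all genes to 0.050. The median of precursor supply was 0.108 with total counts, -0.041 without the epididymis libraries and -0.001 to 0.061 without 1 library. That of chondroitin and dermatan modification was -0.104 with limma-voom and -0.155 to 0.112 without 1 library. Over all 19 alternatives the median ran from -0.139 to -0.039 for the linker, -0.161 to -0.024 for chondroitin polymerisation, 0.015 to 0.128 for heparan polymerisation and 0.001 to 0.119 for heparan modification. Members falling with the macrophage level numbered 5 with upper-quartile factors or total counts, 2 with group means subtracted and 0 to 4 without 1 library (0 without wild-type 1, 4 without Srgn-knockout 4). Members rising with it numbered 4 to 5 without 1 library. Without the 2 farthest or the 3 epididymis libraries, both fits of fewer animals, 0 rose and 0 fell. Unless given, the cause was not tested. No paired analysis was possible because the labels give the groups no shared replicate numbers. Members near 1 CPM (B3galt6, Chsy3, Chst3, Chst13, Extl1) are limited by counting.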
